A study of Bombyx mori with 3 samples.

Results

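Immune recognition and antimicrobial peptide genes of the silkworm midgut were examined after feeding on phoxim, an organophosphate insecticide. A probe was taken as a member if it was a gene probe whose best protein match or gene description named a peptidoglycan recognition protein, a beta-1,3-glucan or gram negative binding protein, lysozyme, cecropin, gloverin, moricin, attacin, lebocin, defensin, enbocin, hemolin, a C-type lectin or immulectin, Relish or Toll, leaving out any text with phenoloxidase. This gave 59 of 23229 gene probes. No probe named a defensin or an enbocin, and 0 were left out for phenoloxidase. Larvae of Bombyx mori strain P50 were compared on 3 two-colour arrays, each carrying RNA of phoxim-fed midguts against RNA of control midguts. Treated larvae ate mulberry leaves dipped for 1 min in phoxim at 4 µg/mL, and controls ate leaves dipped in water. Feeding started on day 3 of the fifth instar, and whole midguts were dissected 24 h later, with 30 larvae per experiment. The labels do not say how many midguts went into each RNA, and a dissected midgut can carry attached muscle, trachea, fat body and haemocytes.

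In insects, peptidoglycan recognition proteins (PGRPs) and beta-glucan recognition proteins bind the walls of bacteria and fungi. Binding feeds the Toll and IMD pathways, whose transcription factors, among them Relish, switch on the genes of secreted antimicrobial peptides. The fat body makes most of these peptides after infection, and the gut epithelium, which meets bacteria with every meal, makes some of its own. C-type lectins and immulectins bind sugars on microbes, and lysozymes cut peptidoglycan.

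Ratios are given as phoxim relative to control, following the header of each array. For replicate 2 the header puts phoxim in Cy3, while the labels put it in Cy5 on every array. The direction of replicate 2 is therefore not settled by the sources, and the mean of each tested member with its sign turned is given beside the main one. Turning it would also swap the phoxim and control intensities of replicate 2. Replicate 3 stood apart from the other arrays: across the 3964 probes kept for testing, log2 ratios correlated with r = 0.62 between replicates 1 and 2, 0.18 between replicates 1 and 3 and 0.26 between replicates 2 and 3. With every one of the 23229 gene probes, dim ones included, these values were -0.47, 0.42 and -0.45. They are descriptions across probes, which are not independent. A spot carried the deposited mark if its brighter channel reached an intensity of 400, and a probe was tested if it carried the mark on all 3 arrays. The technical spread, taken from 5 control probes spotted many times on each array, was an SD of 0.084 to 0.20 on the log2 scale. The number of arrays limits the precision.

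A larger share of recognition probes than of antimicrobial peptide or signalling probes was tested, but each class held few probes and was mostly dim. Of the 59 probes, 13 carried the mark on all 3 arrays, 4 on 2 arrays, 2 on 1 array and 40 on none. The tested share was 22.0% of the members and 17.1% of all gene probes. Of 24 recognition probes 8 were tested and 13 carried no mark. Of 17 effector probes 2 were tested and 13 carried no mark, and of 12 signalling probes 1 and 10. The last 6 probes held a word of the rule without being immune proteins by name: 4 matched tolloid, a metalloprotease of embryonic patterning, and 2 belonged to a hemolin-interacting protein whose best match is a yippee-like protein. Both hemolin-interacting probes were tested.

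**Figure D1:**
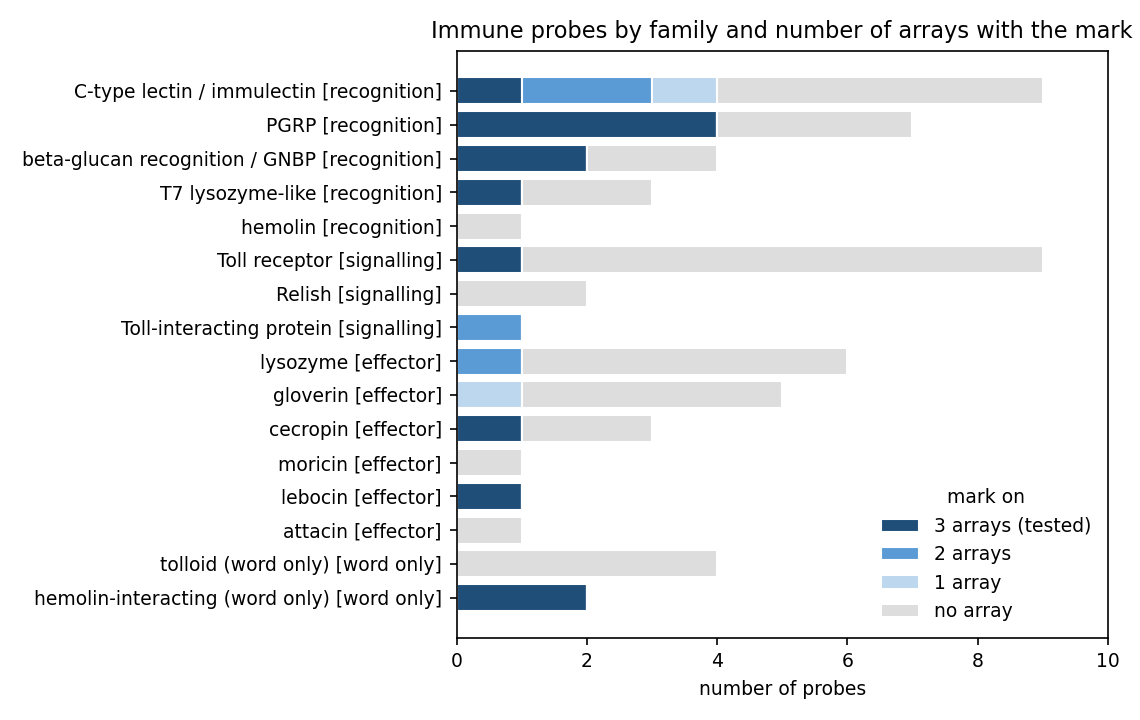
Number of immune probes in each family (bars, x axis in probes), coloured by the number of arrays on which the probe carried the mark. Of 7 PGRP probes 4 were marked on all 3 arrays, against 0 of 5 gloverin, 0 of 6 lysozyme and 1 of 3 cecropin probes.

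PGRPs had the most tested probes of any family, 4 of 7. The probe sw22599, whose best match is PGRP-LB of the tsetse fly, had phoxim intensities of 10935, 10281 and 11822 on replicates 1, 2 and 3 and control intensities of 5437, 4787 and 7011. The phoxim value was above the control value within each array. In Drosophila, PGRP-LB is an amidase that degrades peptidoglycan and dampens the IMD response. The deposited ratios were 1.94, 2.83 and 1.67, a mean log2 ratio of 1.06 ± 0.39 (SD, n = 3), and the test was not passed (adjusted p = 0.075, limma). Without replicate 3 the mean was 1.23 and the threshold was passed (adjusted p = 0.014, limma). It was not passed without replicate 1 (mean 1.12, adjusted p = 0.16, limma) or without replicate 2 (mean 0.85, adjusted p = 0.55, limma). With replicate 2 turned to the labels' direction the mean was 0.064.

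A further PGRP probe, sw17703, read 18528, 14219 and 15606 for phoxim and 6753, 7062 and 12799 for control on replicates 1, 2 and 3. Phoxim was above control within each array, but on replicate 3 the gap was small. The ratios were 2.20, 2.17 and 1.20, which averaged 0.84 ± 0.50 in log2 units (SD, n = 3, adjusted p = 0.16, limma). Without replicate 3 the mean was 1.13 (adjusted p = 0.013, limma). Without replicate 1 it was 0.69 (adjusted p = 0.47, limma) and without replicate 2 it was 0.70 (adjusted p = 0.80, limma). With replicate 2 turned it was 0.092. The best match of this probe, a PGRP precursor of the cabbage looper Trichoplusia ni, is also that of sw09651 and sw12008, which belong to other gene models.

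The other PGRP probes did not follow this pattern of higher values on all arrays. The probe sw09651 had ratios of 0.856, 0.788 and 1.79 on replicates 1, 2 and 3 (mean log2 ratio 0.09 ± 0.65, SD, n = 3, adjusted p = 0.88, limma). Its mean was -0.28 without replicate 3, so its sign rested on that array, and 0.32 with replicate 2 turned. PGRP-S1, a short secreted PGRP (probe sw17404), had ratios of 1.30, 0.875 and 1.18 (mean log2 ratio 0.14 ± 0.30, SD, n = 3, adjusted p = 0.71, limma). Its phoxim values were 438 to 541 and its control values 407 to 456, and with replicate 2 turned its mean was 0.27. The 3 remaining PGRP probes, sw12009, sw12008 and sw04212, stayed below the mark on every array, the brightest spot reaching 395.

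Bacteriophage T7 lysozyme-like proteins carry a lysozyme name, but RefSeq calls the first of them PGRP-S5, so they were counted with recognition. The tested probe, sw21727, matches T7 lysozyme-like protein 2 of the silkworm. Its intensities were 2735, 3520 and 3733 for phoxim and 3864, 5459 and 3553 for control on replicates 1, 2 and 3. Phoxim was lower on replicates 1 and 2 and higher on replicate 3. The mean log2 ratio was -0.20 ± 0.29 (SD, n = 3, adjusted p = 0.60, limma), and with replicate 2 turned it was -0.092. Both probes of protein 1, sw20314 and sw09688, were below the mark on all arrays.

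**Figure D2:**
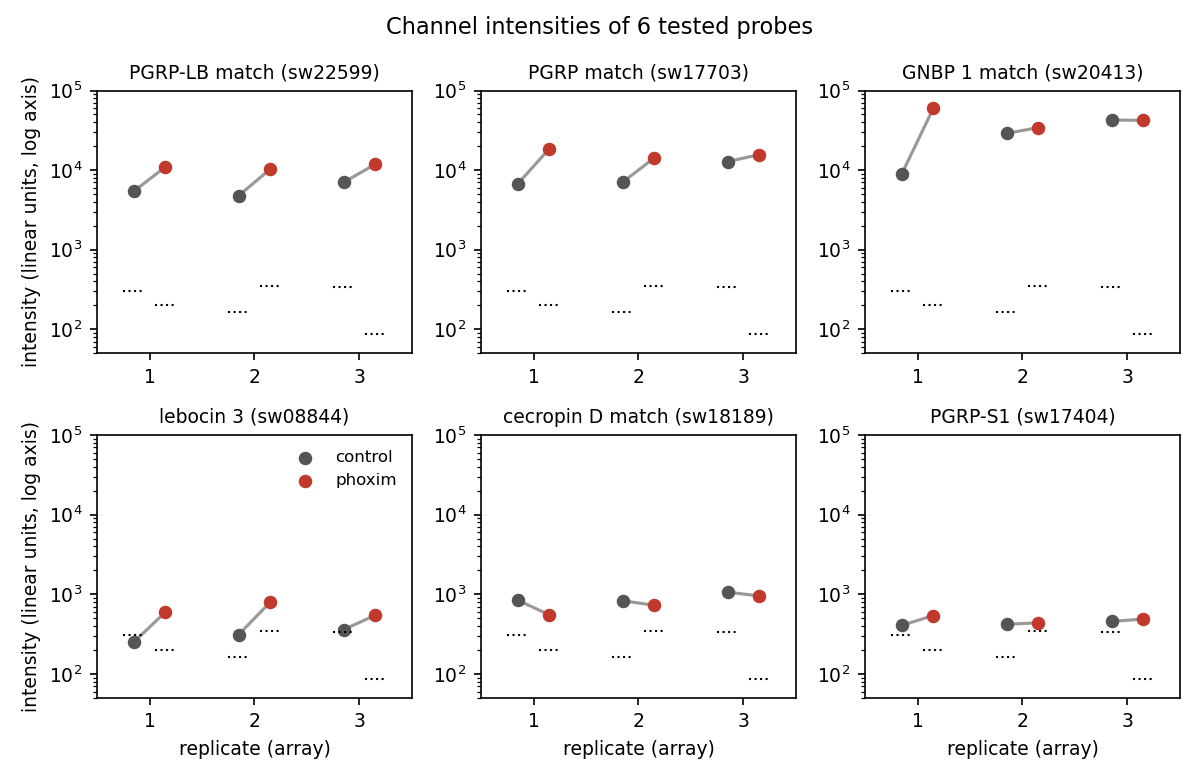
Intensities (y axis, linear units on a log axis) of 6 tested probes on each array (x axis) for control (grey) and phoxim (red), joined within an array; dotted lines are the 95th percentile of the negative control spots in that channel. The PGRP probe sw22599 was higher with phoxim on each array, and lebocin 3 lay near the negative controls in the control channel.

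Beta-glucan recognition proteins and the gram negative bacteria binding proteins (GNBPs) form one family of pattern receptors. The GNBP probe sw20413, whose best match is a termite GNBP 1, had the largest spread of the 13 probes. Its phoxim intensities were 59612, 34168 and 42075 and its control intensities 8986, 28971 and 42630 on replicates 1, 2 and 3. The phoxim value of replicate 1 was the highest intensity on its array and was treated as saturated for that reason alone, so the ratio there may be a lower bound. On replicate 3 both channels were nearly equal. The ratios were 4.63, 1.97 and 0.997, which averaged 1.06 ± 1.11 in log2 units (SD, n = 3, adjusted p = 0.28, limma). The mean was 0.49 without replicate 1 (adjusted p = 0.78, limma) and 1.10 without replicate 2 (adjusted p = 0.82, limma). It was 1.59 without replicate 3 (adjusted p = 0.015, limma) and 0.41 with replicate 2 turned. Any bound on replicate 1 carries into every mean that includes that array. The beta-glucan recognition probe sw00042, matched to a protein of the moth Plodia interpunctella, had ratios of 1.32, 1.08 and 0.970 (mean log2 ratio 0.16 ± 0.23, SD, n = 3, adjusted p = 0.66, limma), with a mean of 0.085 after turning replicate 2. BGRP1, the silkworm's named beta-glucan recognition protein (sw21934), was below the mark on all arrays, with phoxim intensities of 0, 69 and 0.

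Among the lectins, CTL5 alone was tested. This C-type lectin (sw15689) had ratios of 1.61, 0.686 and 0.971 on replicates 1, 2 and 3, so that its arrays pointed in different directions (mean log2 ratio 0.03 ± 0.62, SD, n = 3, adjusted p = 0.96, limma). The mean was 0.40 with replicate 2 turned. Its control channel reached 400 on 2 of 3 arrays. CTL16 (sw07855) carried the mark on 2 arrays. Its phoxim intensities were 619, 293 and 1017 against control intensities of 219, 117 and 816, with ratios of 3.25, 1.41 and 1.66. CTL11, an immulectin (sw22902), was also marked on 2 arrays, with ratios of 2.11, 0.980 and 2.09. A second CTL11 probe, sw21899, was unmarked and stayed at 150 or below in every channel, so its ratios are not read. Hemolin, an immunoglobulin-like protein that binds bacterial surfaces (sw07814), was at 53 or below on every array.

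Of the antimicrobial peptides and lysozymes, 1 lebocin probe and 1 cecropin-like probe were tested. Lebocin is a proline-rich peptide first found in silkworm haemolymph. Its probe sw08844 read 597, 797 and 544 for phoxim and 251, 312 and 360 for control on replicates 1, 2 and 3, with phoxim higher within each array. It met the mark through the phoxim channel alone, and its control channel was above the 95th percentile of the negative controls on 2 of 3 arrays, so its ratio is partly a bound. The ratios were 1.72, 2.15 and 1.41, which averaged 0.79 ± 0.30 in log2 units (SD, n = 3, adjusted p = 0.12, limma). Without replicate 3 the mean was 0.94 (adjusted p = 0.023, limma). Without replicate 1 it was 0.80 (adjusted p = 0.31, limma) and without replicate 2 it was 0.64 (adjusted p = 0.74, limma). With replicate 2 turned it was 0.058.

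The probe sw18189 was the one tested member that was lower on all 3 arrays. Its best match is the precursor of cecropin D, a membrane-disrupting peptide. Its phoxim intensities were 552, 728 and 953 and its control intensities 841, 829 and 1063 on replicates 1, 2 and 3. The ratios were 0.565, 0.817 and 0.964 (mean log2 ratio -0.39 ± 0.39, SD, n = 3, adjusted p = 0.39, limma). With replicate 2 turned the mean was -0.19. Turning 1 array by construction mixes the signs of a probe that was lower on all 3. The probe that RefSeq assigns to CecD itself, BGIBMGA000017, was unmarked on all arrays, with no intensity above 98. The identity of sw18189 therefore rests on similarity.

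Most of the remaining effector probes were dim. Moricin (sw15815) did not exceed 82, Attacin1 (sw17805) 221, and the silkworm's own lysozyme Lzm (sw13847) 327. Of 5 gloverin probes, glv1 (sw01773) was marked on replicate 2 alone, where its control channel read 544 and its phoxim channel 259, and 4 were unmarked. Gloverins are glycine-rich peptides active against bacteria, and sequence similarity within the family leaves cross-hybridisation untested. The probe sw05700 matches an i-type lysozyme of the mosquito Anopheles gambiae. It was marked on 2 arrays, with phoxim intensities of 531, 374 and 1854, control intensities of 268, 298 and 857, and ratios of 2.07, 0.949 and 2.39.

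Signalling genes were near the limit of measurement. The tested probe sw11651 has a best match to a sea urchin Toll-like receptor 3, and had the smallest spread of the 13 probes. Its ratios were 1.02, 0.809 and 0.943 (mean log2 ratio -0.12 ± 0.17, SD, n = 3, adjusted p = 0.73, limma), and turning replicate 2 gave 0.083. All 8 other Toll receptor probes and both Relish probes, sw19683 and sw07654, were unmarked, with no spot above 230. The Toll-interacting protein probe sw17214, named for a regulator of Toll-like receptors in mammals, was marked on 2 arrays, with ratios of 0.633, 1.08 and 1.56.

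The hemolin-interacting protein LOC692641 was measured by a pair of probes that disagreed. The probe sw22955 had ratios of 1.72, 1.15 and 2.06 (mean log2 ratio 0.68 ± 0.43, SD, n = 3, adjusted p = 0.21, limma). The probe sw18580 of the same gene had 0.635, 0.738 and 1.32 (mean log2 ratio -0.23 ± 0.56, SD, n = 3, adjusted p = 0.64, limma). Control intensities of sw22955 were 423, 278 and 299, above the negative controls on 2 arrays, and it met the mark on replicates 2 and 3 through the phoxim channel alone. The means were 0.54 for sw22955 and 0.062 for sw18580 with replicate 2 turned.

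**Figure D3:**
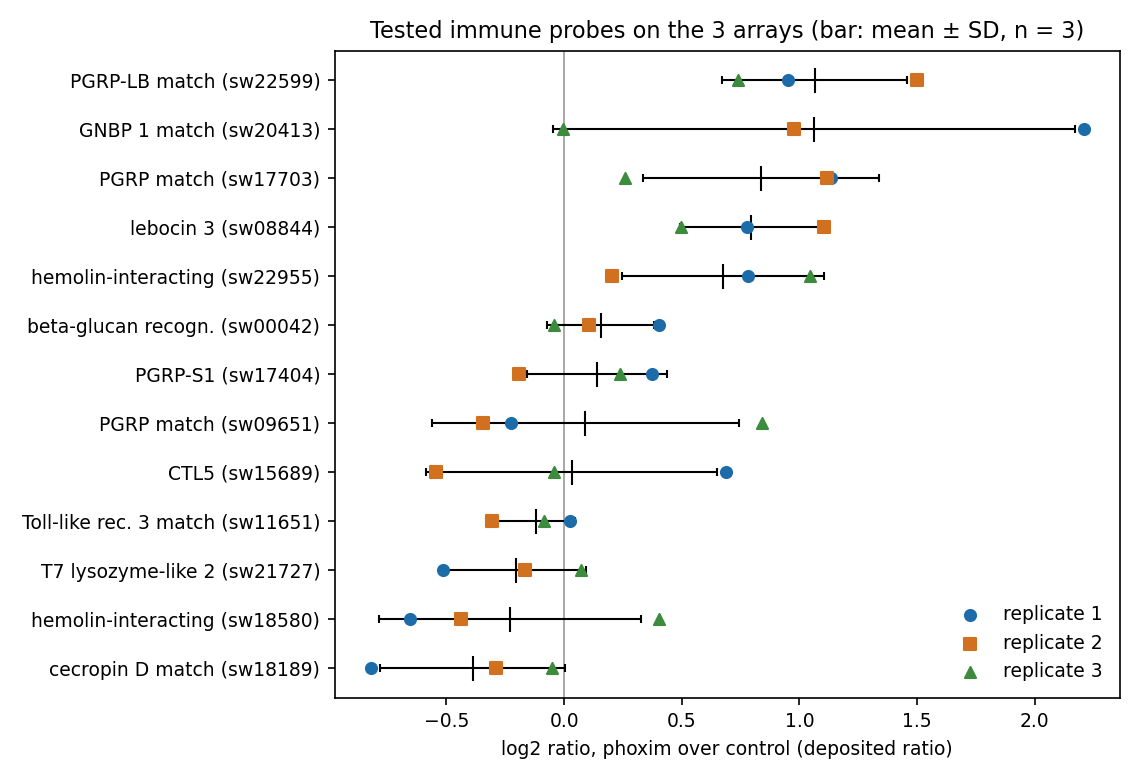
Log2 ratio of phoxim over control (x axis) for the 13 tested immune probes, with 1 symbol per array and a bar for mean ± SD (n = 3). Probes for PGRP-LB, a further PGRP, lebocin 3 and the hemolin-interacting protein were higher on all 3 arrays in the headers' direction. The cecropin D match was lower on all 3. Turning replicate 2 would by construction give each of these 5 mixed signs.

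In limma, 0 of the 13 tested members passed an adjusted p of 0.05, where 27 of 3964 kept probes did (0.681%). At an unadjusted p below 0.05 there were 5 members, all higher, against 15.2% of kept probes in either direction and 10.7% higher. The 5 were the PGRP probes sw22599 and sw17703, the GNBP probe sw20413, lebocin 3 and the hemolin-interacting probe sw22955. The last pair met the mark through the phoxim channel alone on 3 and 2 arrays. Among the 10 members with both channels at 400 or more on all arrays, 3 had an unadjusted p below 0.05, all higher, where 15.8% of 3215 such probes did in either direction and 11.7% as higher. Of the 13 members, 4 were higher on all 3 arrays, 1 was lower on all 3 and 8 were mixed, where 23.0% of kept probes were higher on all arrays and 14.3% lower. With replicate 2 turned, 1 member (PGRP-S1) was higher on all 3 arrays and 0 were lower, where 7.62% of kept probes were higher and 7.32% lower. Nothing particular to the members is read from these counts. The median of the members' mean log2 ratios was 0.14, against 0.03 for all kept probes, and 0.085 with replicate 2 turned. By array the members' medians were 0.41, -0.17 and 0.24 on replicates 1, 2 and 3. Over the 10 members with both channels at 400 or more it was 0.12. Without replicate 3, 4 members passed, all higher (sw22599, sw17703, sw20413 and sw08844), where 7.14% of kept probes passed as higher and 11.9% passed in either direction. Of these 4, lebocin 3 (sw08844) had entered the test through its phoxim channel alone. Without replicate 1, 0 members and 26 of 3964 kept probes passed, and without replicate 2, 0 members and 4 kept probes did. With replicate 2 turned, 0 members passed in limma, with 0 at an unadjusted p below 0.05.

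**Figure D4:**
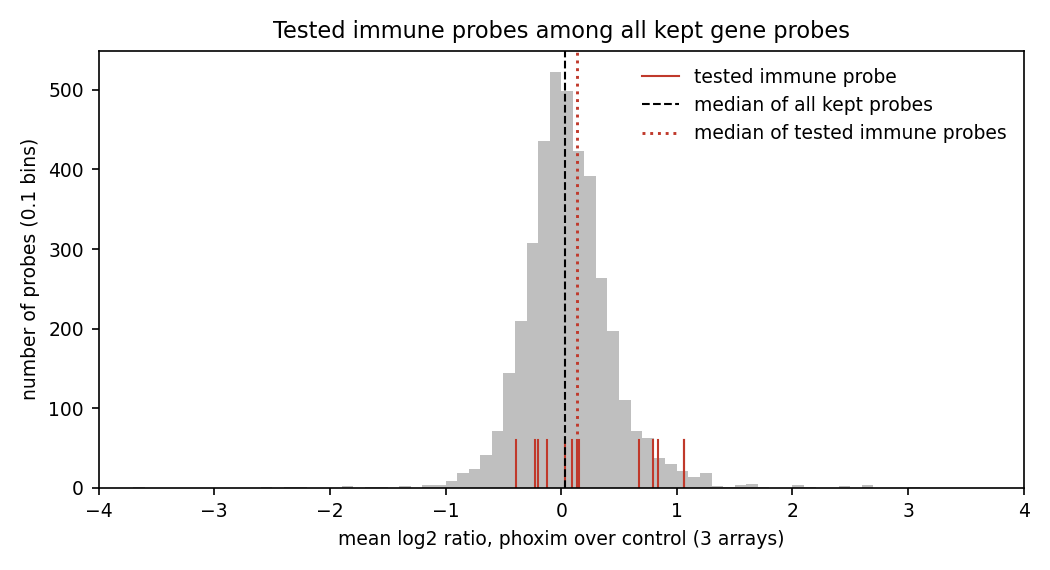
Mean log2 ratio of phoxim over control (x axis) of all 3964 kept probes (grey, number of probes per bin on the y axis) with the 13 tested immune probes as red ticks. The immune probes lay between -0.39 and 1.06, with a median of 0.14 (dotted) against 0.03 for all kept probes (dashed).

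Other genes of the immune pathways, drawn by words for the Toll, IMD and JAK/STAT components, phagocytic receptors, nitric oxide and RNA interference, were mostly dim as well. Of 95 such probes 10 were tested, and 0 passed in limma, with 2 at an unadjusted p below 0.05. The median of their mean log2 ratios was -0.05, and 0.017 with replicate 2 turned, where 0 passed in limma and 0 had an unadjusted p below 0.05. The highest was sw09354, matched to Dicer-2, the nuclease of antiviral RNA interference in flies, with ratios of 1.89, 2.35 and 1.75 (mean log2 ratio 0.99 ± 0.22, SD, n = 3, adjusted p = 0.068, limma). An integrin alpha match, sw08957, had 0.49 ± 0.23, and a Dscam match, sw21135, 0.48 ± 0.69 (SD, n = 3). With replicate 2 turned, sw09354 was at 0.16, sw08957 at 0.29 and sw21135 at -0.18. The probe sw08957 is also among the haemocyte markers below. The lowest were sw17927, a caspase recruitment domain match, at -0.39, the nitric oxide synthase interacting protein match sw06031 at -0.34 and the scavenger receptor match sw20883 at -0.28. After turning replicate 2 they were at 0.16, -0.071 and -0.31. Nitric oxide synthase itself (Nos, sw20844), named after its value was seen, had ratios of 1.01, 0.897 and 0.859.

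Markers of the midgut and of neighbouring tissues were read in the same samples. In bulk midgut, fewer cells of a type and less RNA per cell cannot be told apart. Of 129 midgut marker probes 57 were tested, where 17.1% of all gene probes were. Their summed intensity was 575703 to 727959 for phoxim and 532864 to 716691 for control. The median of their mean log2 ratios was 0.09. Of the 57, 3 passed in limma as higher and 1 as lower, where 0.681% of kept probes passed in either direction. The trypsin probe sw02096 fell (mean log2 ratio -2.55) and the chymotrypsin-like LOC732967 (sw19184) rose (1.18). Of 40 fat body marker probes, drawn by words, 18 were tested, with a median of 2.04. The list was not uniform: means ran from -0.12 (sw20980) to 3.01 (sw01299). Near 0 were also sw22699 (-0.03), sw06523 (0.01) and sw04197 (0.04). Of the 18 tested, 10 passed in limma as higher, where 0.505% of kept probes did. The smallest p belonged to the 30K lipoprotein probe sw19103 (2.66) and the arylphorin match sw06703 (2.67). The tested fat body probes had a summed intensity of 47475 to 207068 with phoxim and 26062 to 60477 without it. Tested were 2 of 2 probes for arylphorin, 13 of 17 for 30K lipoprotein and 0 of 8 for vitellogenin. Of 40 haemocyte marker probes 6 were tested and 1 passed in limma as higher, the hemocyte protease sw07651 (1.63). Prophenoloxidase-2 (sw05534) was at 1.29 and did not pass (adjusted p = 0.075, limma). The other tested haemocyte probes were at 0.49 (sw08957), 0.36 (sw12086), -0.08 (sw10747) and -0.17 (sw22889). The 6 tested haemocyte probes had a median of 0.42, and their summed intensity was 10081 to 13342 for phoxim and 10950 to 13817 for control. Hemocytin, a defining haemocyte gene, had 0 of 8 probes tested, with array medians of 12 to 105.5 for phoxim and 10 to 82.5 for control. For prophenoloxidase 1 of 8 probes was tested. Its array medians were 0 to 67.5 for phoxim and 0 to 80.5 for control. Of 30 muscle marker probes 14 were tested and 0 passed in limma, with a median of 0.43, myosin light chain 2 (sw13219) at 0.89 and a paramyosin match (sw08444) at 0.98. Their summed intensity was 61316 to 81143 for phoxim and 46179 to 57753 for control. Higher on all 3 arrays were 17 midgut, 12 fat body, 4 haemocyte and 8 muscle probes, where 23.0% of kept probes were. Lower on all 3 arrays were 5 midgut probes and 0 of the other tissues, where 14.3% of kept probes were. With replicate 2 turned, 0 marker probes of any of these tissues passed in limma, and 2 muscle probes and 0 others had an unadjusted p below 0.05. The medians were then 0.12 for midgut, 0.87 for fat body, 0.11 for haemocyte and 0.29 for muscle markers. Then 1 of 18 fat body probes was higher on all arrays, and by construction none of the 12 counted above could be. Passing the threshold thus rested on the headers' direction of replicate 2. Headers and labels share the direction of replicates 1 and 3. Their medians were 0.15 and 0.28 for midgut and 2.17 and 2.16 for fat body markers. For haemocyte markers they were 0.23 and 0.61, and for muscle markers 0.51 and 0.52. On these arrays sw02096 had ratios of 0.357 and 0.145, and sw19184 2.40 and 2.00. The part of these tissues in the values of the immune probes was not tested.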

How the data were processed

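For each spot the authors deposited the linear intensity of either dye and, per the file headers, a linear ratio of treated to control RNA. A deposited value table holds log2 values equal to the log2 of that ratio to within 4.9e-09, with column medians of 0.040, -0.021 and 0.016 for replicates 1, 2 and 3, so its scale, centring and direction are those of the ratio. The scanner, background method and normalization were not given in the sources used here; intensities at or below 0 occur, so they were taken as already background-subtracted. The arrays are biological replicates per the series design.

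The mean log2 ratio was tested against 0 in limma 3.58.1 (R 4.3.3, eBayes without trend, two-sided), over 3964 gene probes marked on all 3 arrays, with Benjamini-Hochberg adjustment and a threshold of 0.05. The script was tested on simulated data. Channel values were set against the 95th percentile of 382 negative control spots, and a spot at 99% or more of its array's highest intensity counted as saturated. Figures used matplotlib 3.10.9.

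The text names every member marked on all or on 2 arrays, other families by their probes, the 3 highest and 3 lowest pathway probes, and for each marker list the 2 probes with the smallest p; further names were chosen after their values were seen. Members and lists were chosen with earlier results of these data known. Gene names came from the files; 23 of the 59 members matched a symbol of RefSeq assembly ASM3026992v2, used for names only. Other names are best matches, many to other species, and no coordinates or probe sequences are given. Lists drawn by words hold some genes that share only the word. Alternatives covered normalization, filters, moderation, dye orientation and leaving out each array.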

Additional observations from a re-analysis of the deposited data

Results flagged for a closer look

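The Toll-interacting protein probe sw17214 was left out of the test because it carried the mark on 2 of 3 arrays, yet it was above the 95th percentile of the negative controls in both channels of all 3 arrays. Its mean log2 ratio was 0.03 ± 0.66 (SD, n = 3).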

How the results depend on the processing

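The number of called probes was 27 in limma. It was 1 with scaling between arrays, 0 with all gene probes kept (450 at an unadjusted p below 0.05), 16 with both channels at 400 or more, 0 when dye orientation entered the fit (348 with an unadjusted p below 0.05), 0 with replicate 2 in the labels' direction (29 at an unadjusted p below 0.05), and 4 to 470 with 1 replicate left out. The number of called immune members was 0 in the main setting, 0 to 4 with 1 replicate left out, and 0 under the other alternatives run. Means changed sign for CTL5 (sw15689) with median centring (-0.013), scaling (-0.034), the dye term (-0.11) and leave-one-out (-0.29 to 0.32), for sw09651 with the dye term (-0.018) and leave-one-out (-0.28 to 0.31), and for sw11651 (0.083) and sw18580 (0.062) with replicate 2 in the labels' direction; the cause was not tested. The other 9 members kept their direction in all alternatives run. The members' median of 0.14 was 0.03 to 0.31 with 1 replicate left out, 0.033 over all 59 members, 0.057 with the dye term, 0.085 with replicate 2 in the labels' direction, and 0.15 over 10 members without both hemolin-interacting probes and the sea urchin Toll-like receptor 3 match, an alternative chosen after seeing the data. Above the negative controls in both channels of all arrays were 12 members. The test of within-array ratios is itself paired, and no replicate block could be added to 1 group of arrays. The mark was missing on at least 1 array for 46 of the 59 members, which were not tested.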
